A study of Mus musculus with 4 samples.

Results

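The 10 immediate early response genes were followed in the mammary fat pad (MFP) of young and aged mice. They are Fos, Fosb, Fosl2, Jun, Junb, Egr1, Egr2, Atf3, Ier2 and Nr4a1, taken by their symbols from the deposited table of read counts. All 10 of 10 were present among its 55487 genes, and all 10 passed the filter on low counts that left 22485 genes for testing. Whole MFP was taken from c57b/6j mice aged 14 months (2 samples, aged 1 and aged 2) or 8 weeks (2 samples, young 1 and young 2), without a treatment or transgene in the labels. The study's methods name C57BL/6 mice of strain J, but give the C57BL/6NCrl substrain for the females injected in the MFP. The sex of these 4 samples is not given in the sources used here. The labels call the samples biological replicates and do not give the number of animals behind each, so p-values measure the spread between these samples. Neither the time of day nor the interval between death and lysis is given in the sources used here.

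Immediate early genes are transcribed within minutes of a stimulus without new protein synthesis, when kinases activate serum response factor, its ETS partners or CREB already bound at their promoters. Their messengers are short lived, and most encode transcription factors that switch on a later wave of genes. Growth factors, cell damage, dissection and tissue dissociation are all known triggers, so these genes are often read as a sign of stress at tissue collection. FOS proteins pair with JUN proteins to form AP-1, EGR proteins are zinc finger factors that bind GC-rich sites, and NR4A proteins are orphan nuclear receptors.

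Matches to elements of this response were searched for before the starts of the members, and the stretches of 4 members are shown here. RefSeq promoter windows (GRCm38.p6) were found for 8 members, with 5 starts for Egr2 and 1 for each of the others. Egr1 and Ier2 had no entry. Each stretch is 130 bases, 5′ to 3′ on the strand of the gene. Capitals mark the CArG box bound by serum response factor, the core TGACG of the cyclic AMP response element (or CGTCA, the same core on the other strand), and the EGR site GCGNGGGCG on either strand. Fos is from chr12:85473760-85473889 (plus strand), Junb from chr8:84978749-84978878 (minus strand), Egr2 (the third of its starts) from chr10:67537739-67537868 (plus strand) and Nr4a1 from chr15:101266716-101266845 (plus strand).
Fos: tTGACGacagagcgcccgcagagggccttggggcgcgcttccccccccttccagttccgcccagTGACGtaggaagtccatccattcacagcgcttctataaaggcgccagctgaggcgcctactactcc
Junb: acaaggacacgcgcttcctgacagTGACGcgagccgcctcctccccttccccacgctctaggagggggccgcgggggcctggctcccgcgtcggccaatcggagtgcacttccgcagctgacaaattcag
Egr2: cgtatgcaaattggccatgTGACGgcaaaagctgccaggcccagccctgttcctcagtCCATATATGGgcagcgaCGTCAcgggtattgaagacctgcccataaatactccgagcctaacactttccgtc
Nr4a1: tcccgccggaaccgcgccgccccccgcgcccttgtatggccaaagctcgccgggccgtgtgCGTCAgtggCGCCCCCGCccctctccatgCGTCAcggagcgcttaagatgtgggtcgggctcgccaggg
The Egr2 stretch holds a CArG box between 2 copies of the TGACG core. Over the 250 bases before a start, on both strands, TGACG was found in 6 of the 8 members (Fos, Fosb, Junb, Egr2, Atf3 and Nr4a1) and in 19.8% of 27025 genes. A CArG box was found in 1 of 8 (Egr2) and in 1.62% of genes, and the EGR site in 3 of 8 (Fosb, Fosl2 and Nr4a1) and in 5.33% of genes. The full element TGACGTCA, which contains TGACG, and the AP-1 site TGANTCA were found in 0 of 8 members, against 1.77% and 7.82% of genes. The TATAA element was found in 2 of 8, against 25.8% of genes, and the ETS core GGAA in 8 of 8, against 94.2% of genes. Matches of letters are a description and do not show that a factor is bound. Bases farther than 250 from a start were not searched, so the lack of a match does not show that a gene lacks an element.

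The 4 libraries held between 68803304 and 98402403 counts, and 3 counts corresponded to at most 0.0407 CPM (counts relative to library size after TMM scaling), which covers counting error only. Whole tissue was lysed, so all its cell types contribute RNA, and 8 of 8 adipocyte markers were detected in all samples, at a summed 6550 to 11698 CPM. The samples also differed in other tissue. The 12 skeletal muscle markers summed to 40440 and 64203 CPM in aged 1 and aged 2 and to 10449 and 14623 CPM in young 1 and young 2. The 8 lymphocyte markers summed to 665 CPM in young 1 and to 10.1, 65.5 and 4.27 CPM in aged 1, aged 2 and young 2, so young 1 stood apart. The parts these tissues had in the results below were not tested. Values without young 1 are given for the members and for some of the other genes named. They are not given, for instance, for Lyz2, Nr4a3, Arntl or Hspa1b.

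The 10 genes did not move as a block between the ages. Aged against young MFP was tested with edgeR's quasi-likelihood test over all 22485 genes, and 0 genes passed a Benjamini-Hochberg adjusted p of 0.05 (0%), with 0 of the 10 among them and a smallest adjusted p of 0.36, that of Egr2. An unadjusted p under 0.05 was reached by 2371 genes (10.5%), of which 744 (3.31%) were lower and 1627 (7.24%) higher in aged MFP, and among the members Egr2 was lower and Atf3 higher. DESeq2, run as an alternative, called 845 genes, 148 lower (0.642%) and 697 higher (3.03%), and it called the same 2 members. With 2 samples in each group the smallest two-sided p of an exact permutation test would be 0.333, so the tests rest on the spread estimated across genes. Fold changes are those of aged over young MFP, on the log2 scale, with the standard error (SE).

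The median log2 fold change of the 10 genes was 0.24, with 6 above 0 and 4 below, beside -0.04 over all genes tested. In 3 members (Fosl2, Atf3 and Nr4a1) both aged samples lay above both young samples, and in 3 (Egr1, Egr2 and Ier2) both lay below. In the other 4 (Fos, Fosb, Jun and Junb) the ages overlapped. Over all genes tested, both aged samples lay above both young samples in 23.3% and below them in 22.8%, so the members separated by age about as often as other genes.

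**Figure D1:**
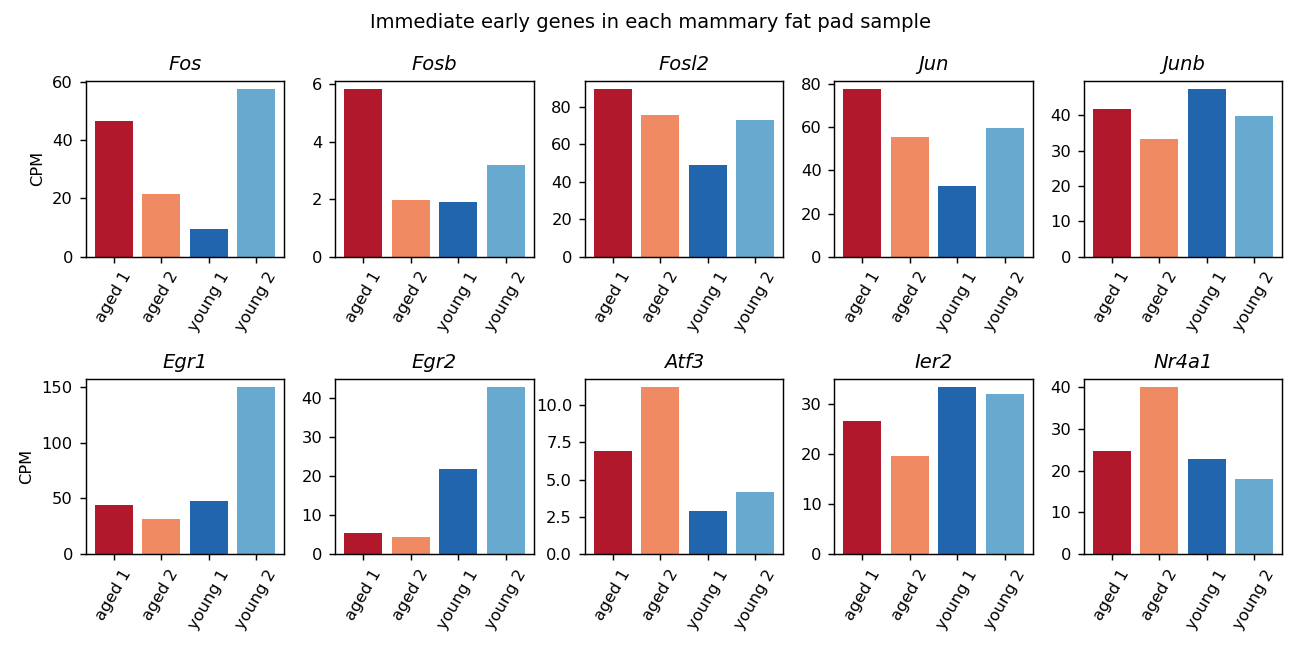
Level of each of the 10 genes in each sample, in CPM on a linear axis from 0, with 1 bar per sample (reds aged, blues young) and a scale of its own in each panel. Egr2 is at most 5.34 CPM in the aged and at least 21.8 CPM in the young samples, Atf3 has the opposite order, and Fos is both lowest and highest in the young samples.

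Egr2 showed the largest difference of the 10. EGR2, also named KROX20, is a zinc finger factor of the EGR family that is best known for its roles in Schwann cells, in T cell tolerance and early in adipocyte differentiation. Egr2 (ENSMUSG00000037868, chromosome 10, 67535475 to 67542188, plus strand, GRCm38) was at 5.34 CPM in aged 1, 4.42 in aged 2, 21.8 in young 1 and 42.9 in young 2, from 437, 394, 1785 and 3166 counts. The ages did not overlap, and the aged samples lay closer to each other (1.21-fold apart) than the young samples (1.97-fold apart). The young mean of 32.3 ± 14.9 CPM (SD, n = 2) was 6.62-fold the aged mean of 4.88 ± 0.65 CPM (SD, n = 2). The log2 fold change was -2.73 (SE 0.41), with an adjusted p of 0.36 by edgeR and of 2.29e-07 by DESeq2. Of all genes tested, 345 (1.53%) had a log2 fold change as low or lower, and Egr2 ranked at place 138 by unadjusted p. Without young 1, the sample highest in lymphocyte markers, the difference was -3.14. Without young 2 it was -2.14, and these are the ends of the range with 1 sample left out. Fewer cells of a type and less RNA per cell cannot be told apart in whole tissue, for Egr2 as for every gene here. The 10 Schwann cell markers, a list added after the values were seen and led by Pmp22 and Mbp, summed to 430.2 and 409 CPM in aged 1 and aged 2 and to 377 and 449 CPM in young 1 and young 2, with a median log2 fold change of 0.13.

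Egr1, the founding member of the family and one of the most widely used markers of acute stimulation, was also lower in both aged samples, but by less than the gap between the young samples (1.66 on the log2 scale). Egr1 (ENSMUSG00000038418, chromosome 18, 34859823 to 34864984, plus strand) was at 43.9 CPM in aged 1, 31.2 in aged 2, 47.4 in young 1 and 149.7 in young 2. Young 1 lay just above aged 1, and young 2 was 3.16-fold above young 1. The log2 fold change was -1.39 (SE 0.61, edgeR adjusted p = 0.506), and it was -0.32 without young 2 and -2.0 without young 1. Most of the difference in Egr1 thus came from young 2, whereas both young samples carried that in Egr2.

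Egr3, the paralog closest to Egr2 in its known roles in lymphocytes and nerve, is one of the wider list of 46 immediate early genes. It was at 2.75 CPM in aged 1, 2.71 in aged 2, 24.0 in young 1 and 11.1 in young 2. Both aged samples lay below both young samples, with a log2 fold change of -2.69 (SE 0.45, adjusted p = 0.36 by edgeR and 3.4e-06 by DESeq2), and of -2.03 without young 1. Egr3 was chosen for description after its values were seen. Egr4 was too low to be tested.

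Levels of different genes were compared per length, as RPKM, which is the CPM of a gene divided by the kilobases of its exons. The 4 EGR genes summed to 12.0 RPKM in aged 1, 8.87 in aged 2, 22.4 in young 1 and 48.5 in young 2. Egr1 made up 81.6% and 78.4% of that sum in aged 1 and aged 2, and 47.0% and 68.8% in young 1 and young 2. The share of Egr2 was 13.1% and 14.7% in aged 1 and aged 2, and 28.5% and 26.0% in young 1 and young 2. Egr1 was therefore the main EGR messenger in every sample, and the share of Egr2 was higher in both young samples. Egr3 made up 24.3% in young 1 and between 5.20% and 6.93% in the other 3 samples.

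**Figure D2:**
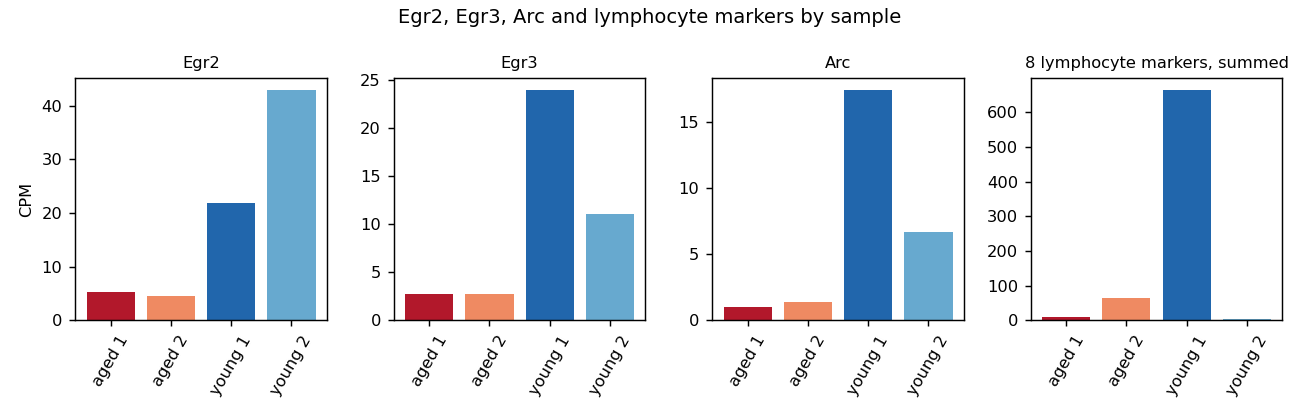
CPM of Egr2, Egr3 and Arc and the summed CPM of 8 lymphocyte markers, with 1 bar per sample (reds aged, blues young), on linear axes from 0. Egr3 and Arc are highest in young 1 and Egr2 in young 2. The lymphocyte markers sum to 665 CPM in young 1 and to 4.27 CPM in young 2, and their part in these levels was not tested.

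Atf3 differed the other way. ATF3 is a bZIP factor of the ATF and CREB family that is induced by damage, by amino acid shortage and by endoplasmic reticulum stress, and it often acts as a repressor. Atf3 (ENSMUSG00000026628, chromosome 1, 191170296 to 191218039, minus strand) was at 6.93 CPM in aged 1, 11.2 in aged 2, 2.89 in young 1 and 4.19 in young 2, from 567, 1001, 237 and 309 counts. Both aged samples lay above both young samples. The aged mean of 9.09 ± 3.05 CPM (SD, n = 2) was 2.57-fold the young mean of 3.54 ± 0.917 CPM (SD, n = 2). The log2 fold change was 1.36 (SE 0.38), with an adjusted p of 0.419 by edgeR and of 0.041 by DESeq2, and leaving out each sample in turn gave 0.97 to 1.66, with 1.12 without young 1.

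A ratio of counts within a sample does not depend on how libraries are scaled. There were 0.771 and 0.394 counts of Egr2 for each count of Atf3 in aged 1 and aged 2, and 7.53 and 10.2 in young 1 and young 2. The ratio of Egr2 to Egr1 counts was 0.122 and 0.142 in aged 1 and aged 2, and 0.46 and 0.286 in young 1 and young 2. The ratio of Egr1 to Fos counts was 0.944 and 1.45 in aged MFP and 5.07 and 2.61 in young MFP. Each of these ratios was higher in both young samples. So was that of Egr2 to Nr4a1 (aged MFP 0.217 and 0.111, young MFP 0.954 and 2.38). Since Egr2 was lower and Atf3 higher in both aged samples, their ratio had to separate the ages. The ratio of Atf3 to Fos counts was 0.149, 0.524, 0.31 and 0.0729 in aged 1, aged 2, young 1 and young 2. That of Egr2 to Egr3 was 1.94, 1.63, 0.906 and 3.86 in the same order. Both overlapped between the ages, and all ratios were chosen after the values were seen.

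Fos, the gene most often used to detect recent stimulation, did not separate the ages. Fos (ENSMUSG00000021250, chromosome 12, 85473890 to 85477273, plus strand) was at 46.5 CPM in aged 1, 21.4 in aged 2, 9.33 in young 1 and 57.4 in young 2, from 3805, 1910, 765 and 4238 counts. The young samples were its lowest and highest, 6.15-fold apart, and the aged samples lay between them, 2.17-fold apart. The log2 fold change was 0.03 (SE 0.95, edgeR adjusted p = 0.992). It was 1.88 without young 2, -0.76 without young 1, -0.65 without aged 1 and 0.48 without aged 2. Its direction thus depended on which sample was left out. The gap between the young samples was 2.62 on the log2 scale, and 4.39% of genes tested had a gap as large or larger.

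Fosb, a close relative of Fos, was the lowest of the 10 and followed a single sample. Fosb (ENSMUSG00000003545, chromosome 7, 19302696 to 19310051, minus strand) was at 5.82 CPM in aged 1, 1.98 in aged 2, 1.90 in young 1 and 3.2 in young 2. Aged 1 was the highest, the other aged sample lay between the young ones, and the log2 fold change of 0.61 (SE 0.64, edgeR adjusted p = 0.699) was -0.38 without aged 1 and 0.28 without young 1. Fosl2, encoding the FOS family member FRA-2, which lasts longer after a stimulus, was steadier. Fosl2 (ENSMUSG00000029135, chromosome 5, 32135801 to 32157842, plus strand) was at 89.2 CPM in aged 1, 75.6 in aged 2, 48.6 in young 1 and 72.6 in young 2. The ages separated by a narrow margin between aged 2 and young 2, with a log2 fold change of 0.44 (SE 0.25, edgeR adjusted p = 0.544), or 0.18 without young 1.

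Per length, Fos was 65.9%, 52.8%, 42.3% and 75.0% of the summed FOS family in aged 1, aged 2, young 1 and young 2, and Fosl2 was 30.7%, 45.2%, 53.5% and 23.0%. Fos was the larger share in every sample except young 1, where the family sum was also lowest, at 9.39 RPKM against 17.3 to 32.6 in the others. Fosl1, which encodes FRA-1 and is not one of the 10, was at most 1.02% of the sum.

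The JUN partners varied less than Fos. Jun (ENSMUSG00000052684, chromosome 4, 95049034 to 95052222, minus strand), which encodes c-JUN, was at 77.7 CPM in aged 1, 55.7 in aged 2, 32.6 in young 1 and 59.9 in young 2. The ages overlapped, with the lowest level in young 1, and the log2 fold change was 0.53 (SE 0.37, edgeR adjusted p = 0.585), or 0.15 without young 1. Its antisense gene Junos shares 232 exonic bases with it on the other strand, and since the strand setting of the counting is not given, reads of the 2 genes may be mixed. Junb (ENSMUSG00000052837, chromosome 8, 84974484 to 84978718, minus strand), which encodes a JUN protein that restrains c-JUN in many settings, was at 41.7 CPM in aged 1, 33.3 in aged 2, 47.3 in young 1 and 39.7 in young 2. It overlapped between ages and had the smallest range of the 10, 1.42-fold from lowest to highest, with a log2 fold change of -0.22 (SE 0.19, edgeR adjusted p = 0.657), or -0.08 without young 1. Junb shares 173 exonic bases with Prdx2 on the other strand. Jund, a JUN gene that is transcribed more steadily and is not one of the 10, made up 63.9% to 70.3% of the JUN family per length, and Jun was 9.84% in young 1 against 17.5% to 18.8% in the other samples.

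**Figure D3:**
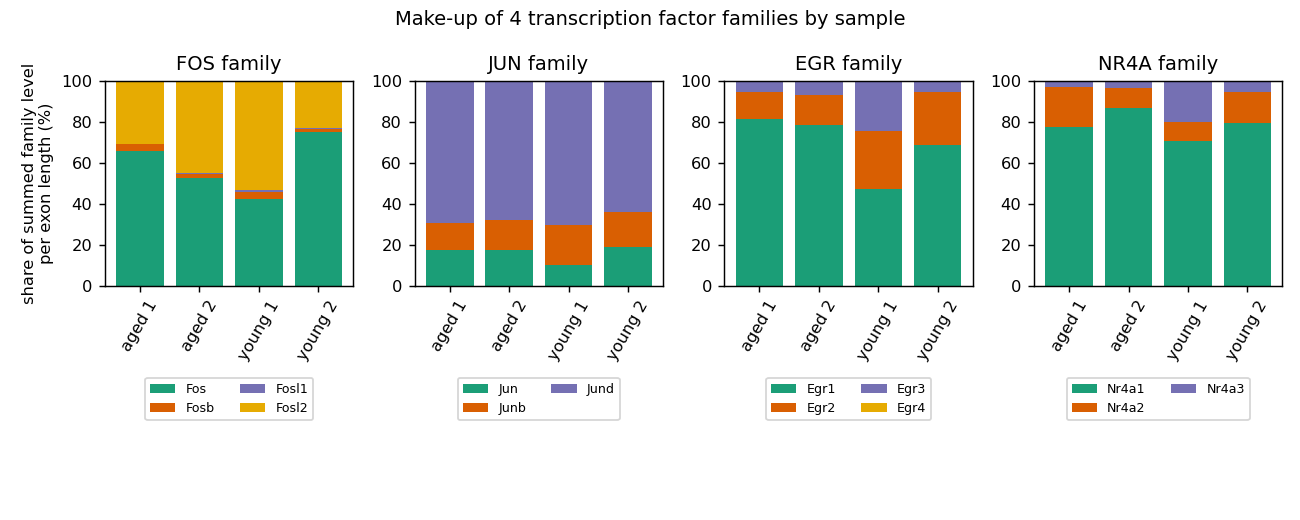
Share of each gene in the summed level per exon length (RPKM) of 4 families, in percent, with 1 stacked bar per sample. Jund is the largest share of the JUN family in all samples, Egr2 is a larger share of the EGR family in the young (28.5% and 26.0%) than in the aged samples (13.1% and 14.7%), and the share of Fos varies most within the young (42.3% and 75.0%).

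Ier2, a small nuclear regulator encoded by a gene with 1 exon, was lower in both aged samples. Ier2 (ENSMUSG00000053560, chromosome 8, 84661331 to 84662852, minus strand) was at 26.6 CPM in aged 1, 19.6 in aged 2, 33.3 in young 1 and 32.0 in young 2. The young samples were only 1.04-fold apart, and 90.1% of genes tested had a gap between the young samples as large or larger. The log2 fold change was -0.50 (SE 0.21, edgeR adjusted p = 0.503) and kept its sign without each sample in turn (-0.75 to -0.30, with -0.47 without young 1). Nr4a1, which encodes the orphan receptor NUR77, was higher in both aged samples. Nr4a1 (ENSMUSG00000023034, chromosome 15, 101254269 to 101274795, plus strand) was at 24.6 CPM in aged 1, 40.0 in aged 2, 22.8 in young 1 and 18.0 in young 2. The margin between aged 1 and young 1 was narrow, and the log2 fold change was 0.66 (SE 0.31, edgeR adjusted p = 0.516), or 0.84 without young 1. Nr4a1 made up 70.6% to 86.6% of the NR4A family per length, and Nr4a3 made up 20.3% in young 1 against at most 5.32% in the other samples.

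**Figure D4:**
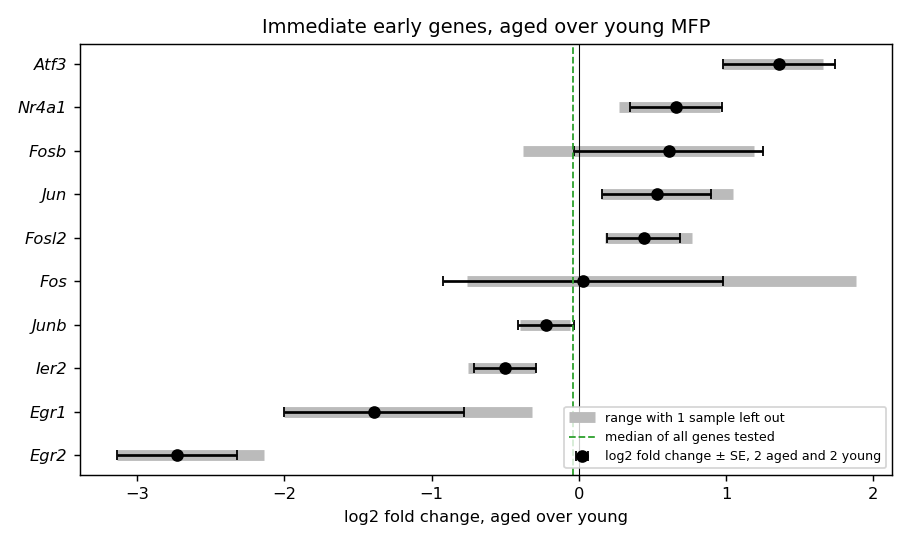
Log2 fold change, aged over young, of each of the 10 genes (points) with its standard error (black bars, 2 aged and 2 young samples), the range with 1 sample left out (grey) and the median of all genes tested (dashed line). Egr2 stays between -3.14 and -2.14 and Atf3 between 0.97 and 1.66, whereas the grey ranges of Fos and Fosb cross 0.

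Ranked by mean level per length over the 4 samples, the order was Ier2 (18.3 RPKM), Jun (17.7), Junb (17.6), Egr1 (15.2), Fos (14.3), Nr4a1 (7.51), Fosl2 (7.38), Egr2 (5.48), Atf3 (2.93) and Fosb (0.517). The ranges over samples overlapped for every pair of neighbours except Atf3 and Fosb. Neighbours above Fosb, in the top 5 and below it, thus cannot be ordered. By the means of each age (2 samples), Egr1 took place 7 in aged (8.37 RPKM) and place 1 in young MFP (22.0 RPKM), the largest move of the 10, with young 2 carrying most of it. Egr2 took place 9 in aged (1.44 RPKM) and 6 in young MFP (9.52 RPKM), and Atf3 place 8 (4.22 RPKM) and 9 (1.64 RPKM), so that Egr2 lay below Atf3 in aged and above it in young MFP.

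Read by sample, the 10 genes varied within each age. The median gap between the 2 samples of an age was 0.49 (aged) and 0.66 (young) on the log2 scale, against 0.23 and 0.40 over all genes tested. Young 1 was lowest for 5 members and highest for 2, beside 33.8% and 34.1% of all genes tested, so it was also often the extreme sample elsewhere. Young 2 was highest for 3 members and lowest for 1, beside 23.4% and 22.6% of all genes. Aged 2 was lowest for 4, aged 1 for 0. Averaged over the members, the log2 CPM relative to the mean of each gene over samples was 0.14 in aged 1, -0.21 in aged 2, -0.33 in young 1 and 0.40 in young 2. By this measure the lowest and the highest sample were both young, and the aged samples lay between them.

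The genes whose levels over the 4 samples came closest to the average profile of the 10 were Bex3, Ccdc157, Nphp4 and Baiap2 (Euclidean distance of centred log2 CPM 0.04 each) and Dipk1c (0.05). The members themselves were farther from their own average, from 0.55 for Fosl2 to 2.59 for Egr2. The average thus described none of them closely.

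The other immediate early genes were read from a wider list of 46, of which 45 were tested. Their median log2 fold change was -0.22. Both aged samples lay above both young in 6 and below in 11, beside 23.3% and 22.8% of all genes tested. EdgeR called 0 of the 45. At an unadjusted p under 0.05, 2 were higher and 5 lower, beside 7.24% and 3.31% of all genes tested. DESeq2 called 1 higher and 2 lower. The 2 lower were Egr3 and Arc. Arc encodes a cytoskeletal protein known from synapses and from migrating skin dendritic cells. Arc was at 0.966 CPM in aged 1, 1.37 in aged 2, 17.4 in young 1 and 6.63 in young 2. The ages did not overlap, and the log2 fold change was -3.36 (SE 0.60, adjusted p = 0.361 by edgeR and 1.98e-06 by DESeq2), or -2.50 without young 1. Tiparp, a target of the aryl hydrocarbon receptor, was the 1 higher gene, at 52.9 CPM in aged 1 and 55.7 in aged 2, against 32.1 and 34.6 CPM in young MFP (log2 fold change 0.70, DESeq2 adjusted p = 0.0165). Rgs1, a regulator of G protein signalling in lymphocytes, was at 15 CPM in young 1 and at most 1.34 CPM elsewhere, and its log2 fold change of -3.31 became 0.88 without young 1.

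Signalling to and from these genes was covered by 4 lists. Over all genes tested, 7.24% were higher and 3.31% lower at an unadjusted p under 0.05. Of 22 upstream kinases and transcription factors, 1 was higher (Mapk3, which encodes ERK1, log2 fold change 0.53) and 0 lower at an unadjusted p under 0.05, and their median was 0.07. Mrtfa, a coactivator of serum response factor, was at 98.7 CPM in young 1 and at 53.5 to 64.2 CPM in the other samples, and its log2 fold change of -0.42 was -0.00 without young 1. DESeq2 called 0 of the 22. Of 13 feedback inhibitors of MAPK signalling, which the same pathway induces, 1 was higher and 1 lower, with a median of 0.01. The lower one was Dusp5, a nuclear phosphatase of ERK, at 2.10 CPM in aged 1, 2.44 in aged 2, 11.0 in young 1 and 6.14 in young 2. It had a log2 fold change of -1.91 (SE 0.38, adjusted p = 0.376 by edgeR and 0.000651 by DESeq2), or -1.44 without young 1. Dusp2, a phosphatase of blood cells, was at 42 CPM in young 1 and at most 2.48 CPM elsewhere, and its log2 fold change of -3.67 became 0.61 without young 1.

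Of 14 partners and corepressors, 2 were higher and 1 lower at an unadjusted p under 0.05, and DESeq2 called the same counts, with a median of 0.05. The higher ones were Maf (1.06, DESeq2 adjusted p = 0.00289), a bZIP factor, and Rxra (0.78, DESeq2 adjusted p = 0.013), a nuclear receptor that pairs with NR4A proteins. The lower one was Batf3, a JUN partner of dendritic cells, at -1.96 (DESeq2 adjusted p = 0.0423) and -1.03 without young 1. Batf had a log2 fold change of -1.18, or -0.58 without young 1. Of 14 AP-1 and EGR target genes, 4 were higher and 1 lower at an unadjusted p under 0.05, with a median of 0.18. DESeq2 called 3 of them, all proteases that act on the matrix or on plasminogen: Mmp3 (1.75, adjusted p = 0.00159), Mmp9 (1.48, adjusted p = 4.36e-06) and Plau (1.02, adjusted p = 0.0449). Mmp13, a collagenase, was at most 1.40 CPM in any sample, and its log2 fold change of 1.99 was 1.36 without young 1 and 3.14 without young 2.

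Other responses to handling and stress were read the same way. Of 14 heat shock genes, 0 passed an unadjusted p of 0.05 in either direction by edgeR and 0 were called by DESeq2, with a median of 0.03. The 2 with the largest fold changes were Hspb1 (0.92, or 0.52 without young 1) and Bag3 (0.67, or 0.39). Hspa1b, an inducible chaperone gene, was chosen after its values were seen. It was at 43.7 CPM in aged 1, 32.7 in aged 2, 14.7 in young 1 and 52.3 in young 2. Hspa1a was also lowest in young 1, at 2.93 CPM, but was highest in aged 1, at 7.57 CPM. Dnajb1 was highest in young 1, at 33.9 CPM, and lowest in young 2, at 25.9 CPM. Of 12 hypoxia genes, 1 was higher and 0 lower at an unadjusted p under 0.05, with 0 called by DESeq2, a median of -0.01 and the largest values in Bnip3 (0.84) and Ndrg1 (0.73).

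Genes of the integrated stress response, the pathway that slows translation and acts through ATF4 on genes including Atf3, had a median log2 fold change of 0.40. Of 12 tested, 5 were higher and 0 lower at an unadjusted p under 0.05, beside 7.24% and 3.31% of all genes tested. In 8, both aged samples lay above both young, beside 23.3% of all genes tested. DESeq2 called 3: Chac1 (1.85, adjusted p = 2.97e-10), a glutathione-degrading enzyme, Trib3 (1.61, adjusted p = 0.0184), a pseudokinase, and Vldlr (1.03, adjusted p = 0.00211), a lipoprotein receptor. Chac1 was at 10.4 CPM in aged 1, 10.6 in aged 2, 2.71 in young 1 and 3.10 in young 2. Fgf21, a hormone of fasting and mitochondrial stress, had a log2 fold change of 2.47 from at most 55 counts in a sample. Slc7a11, the cystine transporter, went against the list at -2.81, but it was at 27.7 CPM in young 1 and at most 3.40 CPM elsewhere, and became 2.55 without young 1. Since edgeR called 0 genes in this list as in every other, these are values of single genes and no test of the list.

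Time of day moves several immediate early genes, so 14 clock genes were read as well. Of these, 5 were higher and 0 lower at an unadjusted p under 0.05, beside 7.24% and 3.31% of all genes tested. Their median log2 fold change was 0.41, with 11 above 0 and 3 below. DESeq2 called 3: Ciart (1.26, adjusted p = 0.0332), Nr1d1 (1.06, adjusted p = 0.000336) and Dbp (0.71, adjusted p = 0.0492). Nr1d1, which encodes the repressor REV-ERBα, was at 189 CPM in aged 1, 156 in aged 2, 84.4 in young 1 and 81.1 in young 2. Arntl went the other way, at 6.68 CPM in aged 1, 5.37 in aged 2, 16.7 in young 1 and 8.09 in young 2. Its log2 fold change was -1.04 (edgeR adjusted p = 0.499), and both aged samples lay below both young samples. The part of the daily cycle in the levels of the immediate early genes was not tested.

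**Figure D5:**
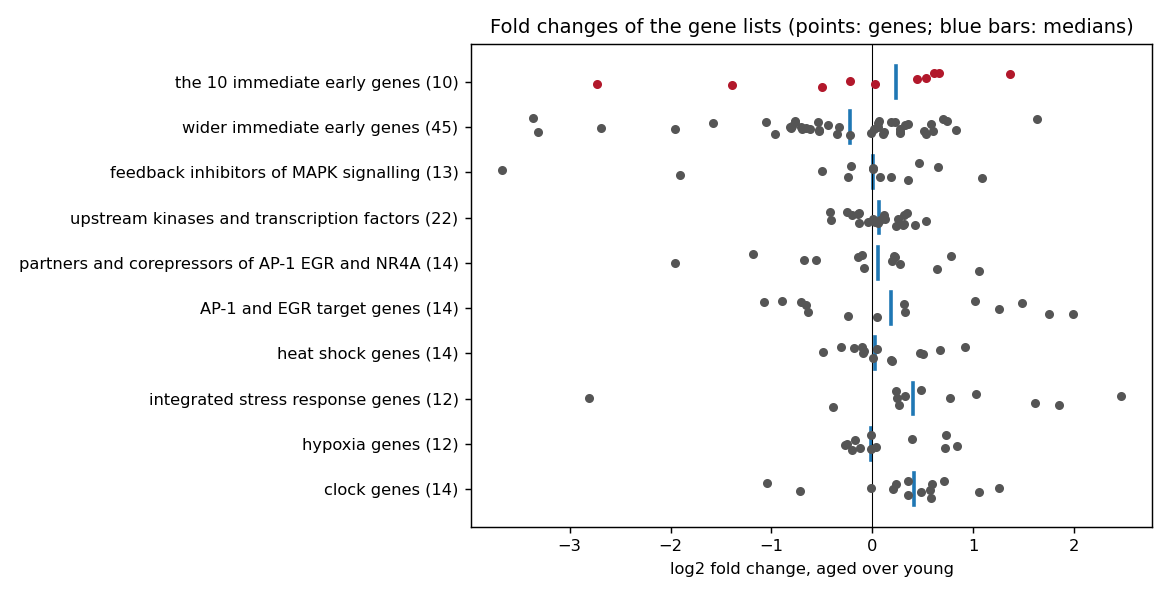
Log2 fold change, aged over young, of each tested gene (points) of the 10 immediate early genes (red) and of 9 related lists (grey), with list medians (blue bars) and the number of genes tested in brackets. The medians run from -0.22 in the wider immediate early list to 0.41 in the clock genes, and Egr2 lies below every gene of the upstream, target, heat shock, hypoxia and clock lists.

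Markers of other cell types were set beside these values. Over all genes tested, both aged samples lay above both young in 23.3%, and DESeq2 called 3.03% of its genes higher. At an unadjusted p under 0.05 by edgeR, 7.24% were higher and 3.31% lower. All 12 skeletal muscle markers (Ttn and Myh4 the most abundant) had both aged samples above both young, 9 of them called by DESeq2. All 5 tested red cell markers (Hbb-bs and Hba-a1 the most abundant) were higher by DESeq2, summing to 212 CPM in aged 1 and 157 in aged 2, against 72.8 in young 1 and 81.5 in young 2. The 8 adipocyte markers, led by Fabp4 and Plin4, also lay higher in both aged samples, at a median of 0.55. Among the members, Atf3, Fosl2 and Nr4a1 lay higher in both aged samples, and Egr1, Egr2 and Ier2 lower. Of all genes tested, 23.3% lay higher and 22.8% lower in both, so this order alone does not link the members to the markers. Of the 8 fibroblast markers, led by Col3a1 and Col1a1, 4 were higher and 3 lower at an unadjusted p under 0.05, and they summed to 2705 CPM in aged 1 and 1975 in aged 2, against 4026 in young 1 and 4701 in young 2. The sums are mostly those of Col1a1, Col1a2 and Col3a1, which were the 3 lower genes. The other 5 fibroblast markers summed to 724 CPM in aged 1, 578 in aged 2, 316 in young 1 and 419 in young 2, and 4 of them (Pdgfra, Dpt, Dcn and Lum) lay higher in both aged samples.

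The lymphocyte markers, led by Cd3e and Cd8a, summed to 10.1, 65.5, 665 and 4.27 CPM in aged 1, aged 2, young 1 and young 2. Macrophage markers, led by Lyz2 and Mrc1, summed to 353, 446, 584 and 252 CPM in aged 1, aged 2, young 1 and young 2. Lyz2 alone was at 374 CPM in young 1, and the other 7 summed to 279, 327, 210 and 206 CPM, with a positive log2 fold change in each and 3 of them higher in both aged samples. Of the 7 mast cell markers, Kit and Mcpt4 were the most abundant, and Kit, which other cells also express, made up most of the sum (97.7 CPM in young 1 and 222 to 239.6 CPM in the other samples). The other 6 were higher in both aged samples and summed to 15.2, 20.4, 2.56 and 10.6 CPM in the same order, and the median log2 fold change of all 7 was 1.57. Endothelial markers (Cdh5 and Kdr the most abundant) summed to 735 to 1093 CPM, and smooth muscle and pericyte markers (Des and Cspg4) to 816 to 1861 CPM. Des, which is not specific to these cells, was at 507, 752, 122 and 132 CPM in aged 1, aged 2, young 1 and young 2. Mammary epithelial markers (Krt18 and Krt8) summed to 606 to 1338 CPM, with Wap at 0 in every sample. Neutrophil markers (Csf3r and Cxcr2) stayed at 3.67 to 5.37 CPM and skin markers (Krt15 and Sbsn) at 11.1 to 27.8 CPM. The part of these cell types in the levels of the immediate early genes was not tested.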

How the data were processed

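Total RNA of 2 aged and 2 young MFP samples was depleted of ribosomal RNA and sequenced with a kit that keeps the strand. The deposited table holds whole-number counts, 1 column per sample, which the authors neither normalized nor pooled. The submitters' processing notes name featureCounts, R 3.6.1 and the builds hg38 and GRCm38, and the paper's methods name DESeq2. The aligner and the strand setting are not given in the sources used here. A wrong strand setting or multi-mapped reads could move the counts of overlapping genes.

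Counts were analysed with R 4.3.3, edgeR 4.0.16 (TMM scaling, filterByExpr, quasi-likelihood test with age as the only term, Benjamini-Hochberg adjustment at 0.05) and, as an alternative, DESeq2 1.42.0 with its defaults. The SE of a log2 fold change was derived from its size and the F statistic (size over the root of F). Log2 CPM used a prior count of 2. RPKM used the exon union of GENCODE M21 (GRCm38), where 55141 of 55487 identifiers were found. Of 55487 genes, 20682 had 0 counts in every sample. The code was tested on simulated counts.

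The members, gene lists and tests were chosen with earlier results of these data known. The text names all members, the 2 genes of largest absolute log2 fold change in each pathway list, the 2 most abundant genes of each marker list and the 5 genes nearest the average profile. Genes called by DESeq2, Egr3, Hspa1b, Hspa1a, Dnajb1, Arntl, Wap, further fibroblast markers and the family members outside the 10 were added after values were seen. Other scalings, filters, a replicate block, DESeq2 and each sample left out were tried. PCR reads without molecular identifiers are not independent molecules.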

Additional observations from a re-analysis of the deposited data

How the results depend on the processing

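Of 130 values (10 members, 13 alternatives), 123 kept their direction and their side of the threshold, 2 passed it with DESeq2 (Egr2 and Atf3) and 5 turned direction. Fos, near 0, became -0.02 with upper quartile scaling and -0.14 with library totals only, and ranged from -0.76 to 1.88 with 1 sample left out. Fosb ranged from -0.38 to 1.19 with 1 sample left out. Library totals alone moved the median of all genes from -0.04 to -0.22, so the shift in Fos is of the size of that shift. DESeq2 called 845 genes, 2 members and 3 genes of the wider list where edgeR called 0. The cause of this gap was not tested. The median of the members was 0.24 and ranged from -0.39 (without aged 1) to 0.64 (without young 2) with 1 sample left out. With 1 sample left out, the lone sample of its age is assumed to vary like the other age. With lengths of the longest transcript, 3 members kept their place in the order of levels.

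Samples with the same replicate number did not deviate together (correlation across genes -0.482, and genes are not independent). With the replicate block edgeR called 0 genes, 1346 passed an unadjusted p under 0.05, and Egr2 was at -2.65 and Atf3 at 1.34. The crossed block, chosen after seeing the data, also called 0 genes. With edgeR, the adjusted p of Egr2 ran from 0.0617 to 0.976 over its alternatives and that of Atf3 from 0.107 to 0.976.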
